A study of Mus musculus with 16 samples.

Results

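The keratin genes of the mouse vomeronasal organ (VNO) were taken by name, as every gene whose symbol is Krt followed by a number. Keratin associated protein genes were left out. Of the 24340 genes that both the count and the RPKM tables hold, 52 were keratin genes. RNA of the VNO was sequenced from 4 High Runner (HR) lines, bred for voluntary wheel running, and from 4 Control lines bred without that selection, all on the outbred Hsd:ICR background. Mice were 12 weeks old and of generation 88. Each library is a pool of 3 mice of one sex from one line, so that HR males, HR females, Control males and Control females have 4 libraries each, from HR lines 3, 6, 7 and 8 and from Control lines 1, 2, 4 and 5. A line has no second pool of the same sex. The main test of linetype takes the 16 libraries with sex in the model and does not use line, and fits that do use line are given beside it. Counts on genes ranged from 15998552 to 70875276 per library. Markers of vomeronasal neurons were high in all 16 libraries, with *Omp*, the olfactory marker protein, between 716 and 1406 RPKM.

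Keratins are the intermediate filament proteins of epithelia. A filament is built from pairs of an acidic type I and a basic type II chain, and the pair in use tells how an epithelium is made. *Krt8* and *Krt18* are the pair of simple epithelia, to which the supporting and duct-lining cells of the nose belong. *Krt5* and *Krt14* mark the basal cells of stratified and pseudostratified epithelia, including the stem cells of olfactory tissue. *Krt1* and *Krt10* replace them in cells that move up and cornify in skin, and *Krt4*, *Krt13* and *Krt76* do so in the lining of the mouth and the nasal entrance. *Krt6a*, *Krt6b*, *Krt16* and *Krt17* are found in activated, oral and appendage epithelia. The root sheath and hard keratins build the hair follicle and the hair shaft.

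By this knowledge the 52 genes were placed in 8 classes: 7 simple, 3 basal, 6 cornifying, 3 mucosal, 6 activated and duct, 8 root sheath and 15 hard keratins, and 4 others. On GRCm38 with the GENCODE M21 annotation, 51 of them were placed, all in the known pair of gene clusters. The cluster of chromosome 11 held 27 keratins between 99232761 and 100269871, from *Krt222* to *Krt42*, all on the minus strand. These are the type I genes. The cluster of chromosome 15 held 24 keratins between 101347444 and 102032027, from *Krt80* to *Krt18*, 21 on the minus and 3 on the plus strand. *Krt18*, a type I gene, lies there at the end of the type II genes, next to its partner *Krt8*. Under the name *Krt85* no gene was found in that annotation.

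Keratins are similar in sequence, and reads that fit more than one place in the genome had been dropped. Of the 75-base words of a keratin's transcripts, 99.9% were found in no other gene's transcripts for the median keratin, and 37 of the 51 genes were over 95%. *Krt6a* was the lowest at 48.9% and shared 797 words with *Krt6b*, which stood at 60.4%. *Krt8* stood at 76.5%, with *Krt8-ps*, its pseudogene, as the nearest relative. Levels of these genes are uncertain to that extent.

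The bases before the start sites of *Krt5*, *Krt10* and *Krt76* are shown because the leading members of 3 classes (basal, cornifying and mucosal) are the genes whose levels the comparison of libraries turns on. Each sequence is the 150 bases upstream of the RefSeq start on GRCm38.p6, on the minus strand, at chr15:101712906-101713055 for *Krt5*, chr11:99389365-99389514 for *Krt10* and chr15:101892921-101893070 for *Krt76*. Capitals mark the letters TATAAA.
Krt5: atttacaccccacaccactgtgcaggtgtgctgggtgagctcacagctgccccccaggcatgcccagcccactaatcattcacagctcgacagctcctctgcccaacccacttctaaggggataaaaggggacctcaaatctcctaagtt
Krt10: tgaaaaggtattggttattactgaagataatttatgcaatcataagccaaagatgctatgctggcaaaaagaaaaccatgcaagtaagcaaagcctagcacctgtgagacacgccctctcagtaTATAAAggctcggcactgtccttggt
Krt76: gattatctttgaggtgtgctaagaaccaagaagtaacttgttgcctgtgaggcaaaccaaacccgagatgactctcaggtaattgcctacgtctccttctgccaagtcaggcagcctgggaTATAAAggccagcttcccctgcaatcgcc
The letters began 26 bases before the start of *Krt10* and 29 before that of *Krt76*, and were not in the window of *Krt5*. Searched on both strands of the 250 bases before each start, TATAAA was in 17 of the 36 windows of 35 keratin genes (47.2%) and in 4063 of the 32851 windows of all genes (12.4%). It was in 7 of 7 windows of root sheath keratins, in 6 of 9 of hard keratins and in 0 of 2 of basal keratins. A match is a description of these letters and not of a site in use.

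The VNO RNA held mainly simple keratins. In the median library they made up 90.1% of the summed RPKM (a level scaled to gene length and library size) of all 52 keratins. *Krt18* led with a mean of 321 RPKM, above the mean level of 99.4% of genes, followed by *Krt8* with 192 and *Krt23*, a type I keratin of glandular and duct epithelia, with 122. These 3 were the only keratins with a median of at least 100 RPKM, 7 had at least 10, 13 at least 1 and 20 at least 0.1. *Krt17* came next in mean level at 56.5 RPKM, then *Krt19* at 36.4, *Krt7* at 16.8, *Krt5* at 15.5, *Krt14* at 10.7 and *Krt10* at 9.14. Below *Krt23* the order of the means rests on few libraries, since the median of *Krt10* was 2.47 RPKM and that of *Krt76* 0.0431. At the other end 22 keratins had fewer than 100 counts over the 16 libraries together. *Krt32* and *Krt71* had 0 among 631016654 counts, which allows up to 3 counts and covers counting error only.

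**Figure D1:**
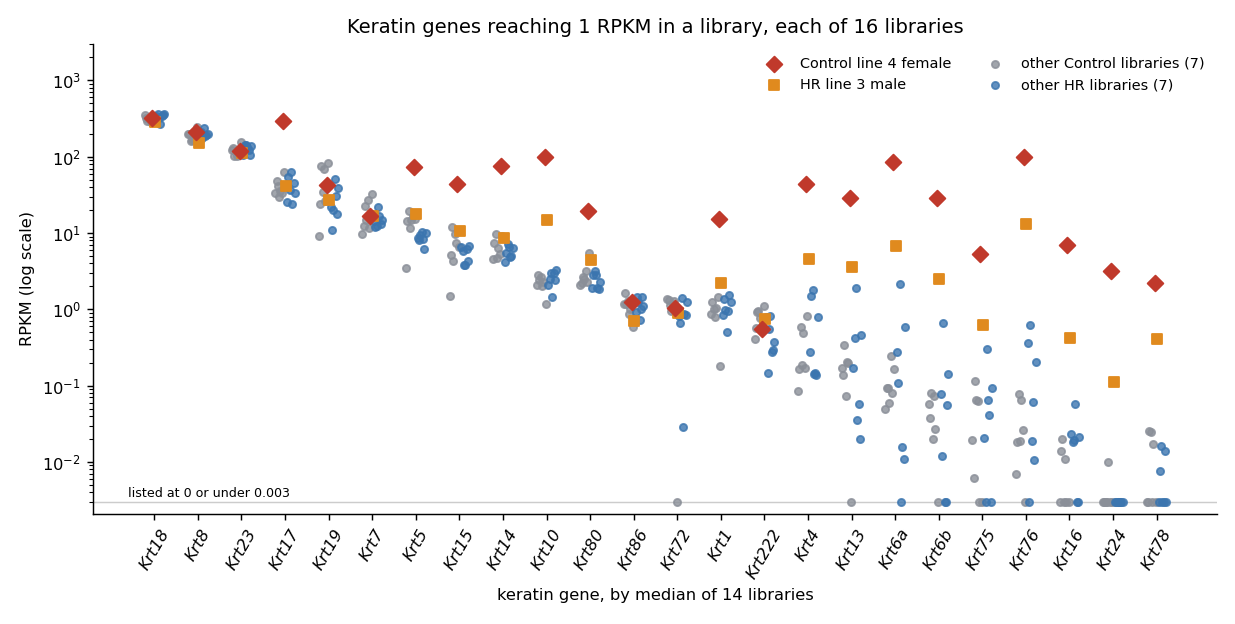
RPKM on a log axis of the 24 keratin genes that reached 1 RPKM in a library, ordered by the median of 14 libraries, with one point per library. The Control line 4 female library (red diamonds) and the HR line 3 male library (orange squares) lie above the other 14 for *Krt10*, *Krt76* and *Krt6a*, while all 16 libraries lie close together for *Krt18*, *Krt8* and *Krt23*.

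Before any comparison, one library has to be named. The Control line 4 female library had the highest level of 24 of the 52 keratins and of 16 of the 24 that reached 1 RPKM. The count over all 52 includes genes near 0, such as *Krt34* and *Krt35* with 1 count each in all. The share of all genes with their highest level in this library was not computed. Its summed keratin RPKM was 1634, against 669 to 909 in the 14 libraries other than itself and the HR line 3 male library, which had 731. On log2 CPM (counts scaled to library size, prior count 2), 17 of the 34 keratins with at least 10 counts in a library were more than 4-fold above the median of those 14 in Control line 4 females, compared with 1.30% of all 17728 such genes. In HR line 3 males 8 of the 34 were, compared with 1.42% of genes, and all 8 were among the 17. The filter admitted *Krt16*, *Krt24*, *Krt42*, *Krt78* and *Krt79* through counts in these libraries alone. Among the 29 keratins with at least 10 counts in one of the 14 others, 13 were above in Control line 4 females, compared with 0.910% of genes, and 5 in HR line 3 males, compared with 1.24%. No keratin was more than 4-fold below in either library. With one library on one side, these are descriptions without a test. The tests of linetype, sex and their interaction below are given with and without them.

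*Krt18*, *Krt8* and *Krt23* had no such excess. *Krt18* in Control males (lines 1, 2, 4 and 5) was 355, 326, 292 and 310 RPKM, and in Control females 318, 285, 317 and 286. In HR males (lines 3, 6, 7 and 8) it was 287, 339, 362 and 326, and in HR females 272, 346, 351 and 360. All 4 groups overlapped, and the highest library was 1.33 times the lowest. *Krt8* was 201, 199, 162 and 168 RPKM in Control males and 176, 164, 208 and 247 in Control females. In HR males it was 153, 190, 209 and 176, and in HR females 239, 189, 191 and 199. The highest and lowest *Krt8* libraries differed 1.61-fold, and the Control line 4 female library, at 208, lay inside the range. *Krt23* ranged from 102 to 158 RPKM. The coefficient of variation over 16 libraries was 9.31% for *Krt18*, 13.6% for *Krt8* and 13.9% for *Krt23*, the other 14 libraries giving 9.44%, 13.1% and 14.6%.

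*Krt19* and *Krt7*, keratins of ducts and ciliated epithelia, varied more. *Krt19* was 9.22, 24.1, 74.8 and 34.5 RPKM in Control males and 68.7, 26.4, 43.0 and 82.8 in Control females. It was 27.4, 22, 10.8 and 20.3 in HR males and 51.2, 30.8, 17.5 and 38.7 in HR females. The highest values were in Control line 5 females, line 4 males and line 1 females, and the highest library was 8.98 times the lowest. *Krt7* ranged from 9.67 to 32.7 RPKM, with the same library lowest (Control line 1 male) and the same highest (Control line 5 female). *Foxj1*, the regulator of motile cilia, was at 14.4, 11.6 and 14.4 RPKM in those 3 libraries and from 1.92 to 10 in the other 13. *Tekt1*, also a ciliated cell marker, was at 7.07, 5.87 and 5.99 RPKM there and from 0.979 to 4.14 in the other 13. *Rsph1*, the ciliated cell marker with the highest mean, did not single out those 3 libraries, at 24.9, 24.7 and 25.6 RPKM. It was higher in Control line 4 females, at 27.1, and in HR line 8 females, at 27.6. All 4 ciliated cell markers of the list were detected, with a summed level from 20.9 to 51.8 RPKM in Control and from 22.4 to 39.4 in HR libraries. The part of ciliated cells in the levels of *Krt19* and *Krt7* was not tested, and in bulk RNA fewer cells of a type and less RNA per cell cannot be told apart. *Krt80* stood at 19.6 RPKM in Control line 4 females and from 1.85 to 5.51 elsewhere. Though placed in the simple class, it did not behave like *Krt8*, *Krt18* and *Krt23* in that library. On log2 CPM it was 2.91 above the median of the 14 others, where those genes were at 0.11, -0.12 and -0.06. *Krt20*, the keratin of gut and taste cells, had 12 counts in all.

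**Figure D2:**
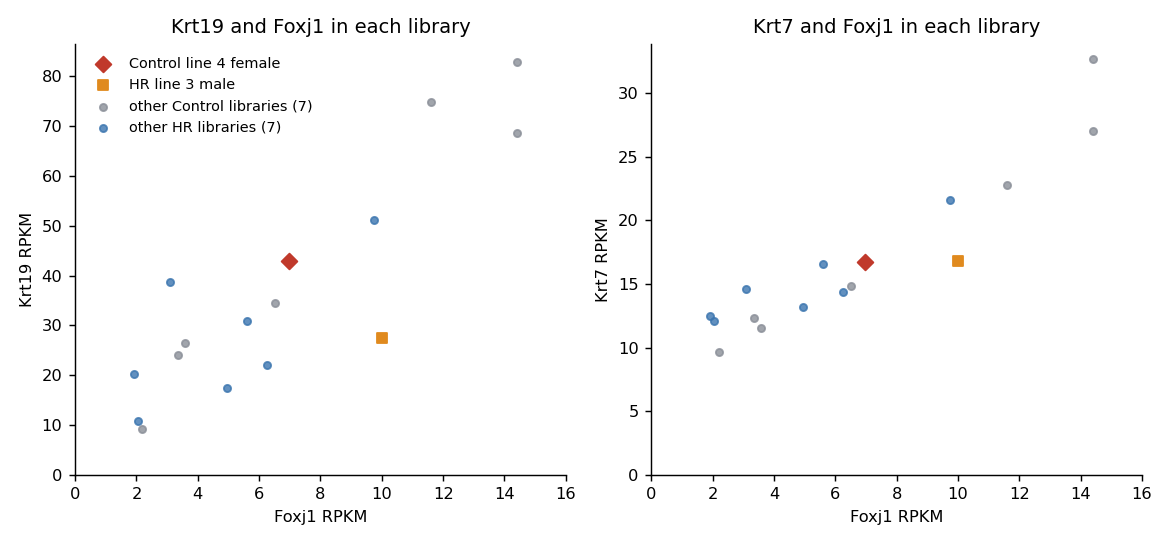
RPKM of *Krt19* (left) and *Krt7* (right) against RPKM of *Foxj1*, with one point per library and linear axes. The 3 libraries with *Foxj1* at 11.6 or 14.4 RPKM have the 3 highest values of both keratins, and HR line 3 males, with *Foxj1* at 10, have *Krt19* at 27.4.

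Basal keratins were present in every library at a moderate level. *Krt5* was 3.47, 14.2, 19.3 and 11.6 RPKM in Control males and 15, 16.5, 74.4 and 15.2 in Control females. It was 18.0, 8.72, 8.17 and 9.51 in HR males and 10.3, 8.28, 6.10 and 10 in HR females. In females the Control and HR libraries did not overlap, with or without the Control line 4 library, while in males the HR values fell within the Control range. *Krt5* was the 1 keratin of 34 with Control females all above HR females, as 0.609% of genes were, and 1.43% without the Control line 4 library. *Krt14*, the partner of *Krt5*, was 4.51, 7.37, 9.63 and 4.76 RPKM in Control males and 6.28, 5.36, 75.4 and 9.17 in Control females. In HR males it was 8.73, 4.19, 5.44 and 7.17, and in HR females 6.63, 4.79, 5.0 and 6.29. The Control line 4 female library held 7.31 times the median *Krt5* of the 14 other libraries and 12.9 times the median *Krt14*. *Krt15*, the type I keratin of basal cells with stem cell character, was 43.4 RPKM there, 10.6 in HR line 3 males and between 1.51 and 12 in the others. The HR line 3 male library was therefore within the range of the 14 others for *Krt5*, *Krt14* and *Krt15*. Summed over the class, basal keratins reached 193 RPKM in Control line 4 females, 37.3 in HR line 3 males and 9.49 to 40.9 in the rest.

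Cornifying keratins were low outside these libraries. *Krt10* was 2.10, 2.80, 2.41 and 2.63 RPKM in Control males and 2.05, 2.30, 98 and 1.16 in Control females. In HR males it was 14.9, 2.07, 2.51 and 3.03, and in HR females 1.45, 3.01, 2.43 and 3.32. Without the line 4 and line 3 libraries no value passed 3.32 RPKM, and HR and Control libraries overlapped. *Krt1*, the partner of *Krt10*, was 15.2 RPKM in Control line 4 females, 2.23 in HR line 3 males and 0.182 to 1.52 in the others. *Krt78* was 2.21 and 0.403 RPKM in these libraries and at most 0.0252 in the others. *Krt2* and *Krt9*, keratins of the upper epidermis and of palm and sole, had 7 and 15 counts in all, and *Krt77* had 114. Summed over the class, levels were 115 RPKM in Control line 4 females and 17.6 in HR line 3 males, with 1.34 to 4.60 in the rest.

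Size depends on the table for *Krt10*. The ratio of CPM to RPKM, which gives the length in kilobases behind a value, was 2.09 in Control line 4 females and 2.81 in HR line 3 males, while its median over the 16 libraries was 8.40 and its highest value 14.4. A gene whose 2 tables count the same reads keeps one ratio, as *Krt5* did (1.94 to 2.05). Of 26 keratins with at least 20 counts in at least 2 libraries, 20 varied less than 1.3-fold in this ratio and 6 (*Krt1*, *Krt10*, *Krt72*, *Krt75*, *Krt84* and *Krt222*) more than 1.5-fold. *Krt10* stood 40.5-fold above the median of the 14 others in Control line 4 females by RPKM, and 3.28 above it on log2 CPM. In HR line 3 males it stood 6.18-fold above by RPKM and 0.99 above on log2 CPM. The annotation places the gene Gm11940 across 558 bases of *Krt10*. Whether reads of that gene enter the counts was not tested.

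As a ratio of the highest library to the median, mucosal keratins varied most among the 5 classes compared (simple, basal, cornifying, mucosal, and activated and duct). *Krt76*, a type II keratin of hard palate and gum, had 8044 counts in Control line 4 females and 1219 in HR line 3 males, against 0 to 52 in the 14 others. In RPKM it was 98.3 and 13.1, and HR line 8 males followed at 0.622, HR line 6 males at 0.362 and HR line 8 females at 0.203, with the remaining 11 libraries below 0.1. *Krt4* was 43.8 RPKM in Control line 4 females and 4.51 in HR line 3 males. In the others *Krt4* ran from 0.0839 in Control line 1 males to 1.79 in HR line 8 males. *Krt13*, the partner of *Krt4*, was 28.7 and 3.62 RPKM and otherwise at most 1.89, again in HR line 8 males. The summed mucosal level was 171 RPKM in Control line 4 females, 21.3 in HR line 3 males, 4.30 in HR line 8 males and 0.170 to 1.92 in the other 13.

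The activated and duct keratins split. *Krt17* was present everywhere, from 24.2 to 62.5 RPKM, except for 297 in Control line 4 females, and HR line 3 males at 41.6 were inside that range. *Krt6a* was 85.8 RPKM in Control line 4 females, 6.79 in HR line 3 males, 2.14 in HR line 8 males and at most 0.583 in the other 13. *Krt6b* was 29.2, 2.52 and 0.671 in the same 3 libraries. *Krt16*, which pairs with *Krt6a*, had 386 and 29 counts in the first 2 of these and at most 2 counts elsewhere. *Krt75* followed the same order with 5.30 and 0.629 RPKM, and *Krt79*, a keratin of the hair canal, had 81 counts in all. HR line 8 males had 5 keratins more than 4-fold above the median of their 15 counterparts (*Krt13*, *Krt4*, *Krt6a*, *Krt6b* and *Krt76*), compared with 0.226% of genes. HR line 8 females had 2 (*Krt6a* and *Krt76*), compared with 0.158% of genes. Elsewhere HR line 6 males had *Krt76*, HR line 7 males *Krt4* and Control line 2 females *Krt74* above 4-fold. Of 17728 genes with at least 10 counts in a library, 109, 39 and 57 were above in these libraries. *Krt74* is outside that pool, with 3 counts in Control line 2 females and 11 in all.

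**Figure D3:**
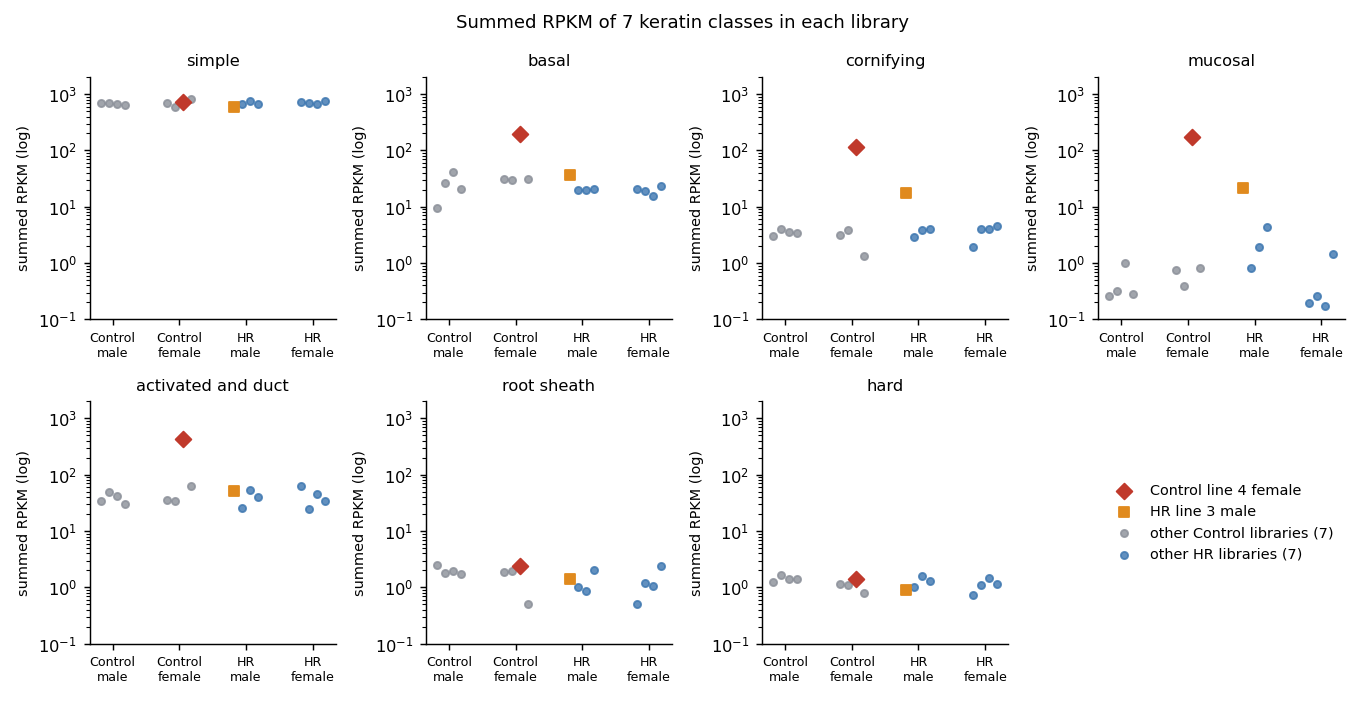
Summed RPKM of 7 keratin classes in each library, on log axes with one common scale, by linetype and sex, with one point per library. The simple keratins stay between 598 and 811 RPKM, the basal, cornifying, mucosal and activated classes peak in Control line 4 females at 193, 115, 171 and 424 RPKM, and the root sheath and hard keratins stay below 3 RPKM.

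The summed hair keratins stayed within the range of the 14 other libraries. The 15 hard keratins summed to 1.41 RPKM in Control line 4 females, 0.916 in HR line 3 males and 0.746 to 1.66 in the others, nearly all of it *Krt86*, with a mean of 1.10 RPKM. The 8 root sheath keratins summed to 2.40, 1.43 and 0.499 to 2.48 RPKM, led by *Krt72* with a mean of 0.938. *Krt25* and *Krt27*, of the inner root sheath, had their highest level in Control line 4 females, at 0.838 and 0.484 RPKM against at most 0.803 and 0.384 in the 14 others. Among the 4 other keratins, *Krt222* had a mean of 0.617 RPKM. *Krt24* had 200 of its 208 counts in Control line 4 females, *Krt42* had 20 counts in all and *Krt12*, the keratin of the cornea, had 47. For *Krt84* and *Krt82* the 669 and 144 counts and the RPKM (at most 0.0232 and 0.0143) do not describe one level.

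*Krt76*, *Krt6a* and *Krt6b* led in both libraries. On log2 CPM, *Krt76* stood 11.05 above the median of the 14 others in Control line 4 females and 8.24 in HR line 3 males. For *Krt6a* these differences were 9.5 and 5.90, for *Krt6b* 8.59 and 5.11, for *Krt4* 7.41 and 4.18, and for *Krt13* 7.11 and 4.20. All 8 genes raised in both libraries were mucosal (*Krt4*, *Krt13* and *Krt76*), activated (*Krt6a*, *Krt6b* and *Krt16*), *Krt78* or *Krt24*. Those above 4-fold in Control line 4 females and not in HR line 3 males were the basal *Krt5*, *Krt14* and *Krt15*, and *Krt1*, *Krt10*, *Krt17*, *Krt42*, *Krt75* and *Krt80*. For low genes these differences depend on the prior count of 2.

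**Figure D4:**
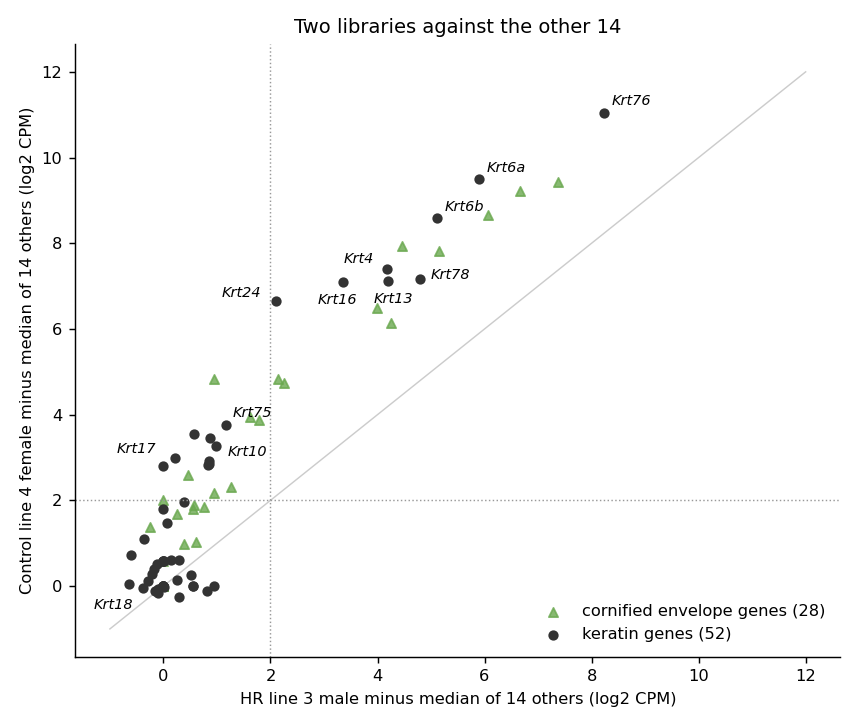
Difference in log2 CPM from the median of 14 other libraries, for HR line 3 males (x axis) and Control line 4 females (y axis), with one point per gene, for 52 keratin genes (circles) and 28 cornified envelope genes (triangles). Dotted lines mark a 4-fold difference and the grey line marks equal differences. The keratins above 4-fold in both libraries lie above the grey line, with *Krt76* farthest out at 8.24 and 11.05.

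Of 28 cornified envelope genes, whose products cross-link into the cell coat over keratin filaments, 16 were more than 4-fold above in Control line 4 females and 9 in HR line 3 males, all 9 also among the 16. Of all genes with at least 10 counts in a library, 1.30% and 1.42% were. The list had no such filter, so it holds genes near 0 in the 14 others. *Sprr3*, an envelope protein of oral and esophageal lining, was 64.6 RPKM in Control line 4 females and 10.4 in HR line 3 males. In the 14 others *Sprr3* was at most 0.973, with a median of 0.0482. *Dmkn*, secreted by differentiating keratinocytes, was 29.6 and 7.73 RPKM against 0.859 to 11.0, and *Sbsn*, likewise secreted, was 28.1 and 4.06 against 1.27 to 8.40. *Sprr1a*, the envelope gene with the highest mean, was high in every library, from 27.5 to 370 RPKM in the 14 others and 512 in Control line 4 females. Desmosomes and hemidesmosomes anchor keratin filaments at the membrane. The genes of this list summed to 418 RPKM in Control line 4 females, above the range of 301 to 360 in the 14 others. HR line 3 males, at 322, were inside that range. Their leading genes *Perp* and *Dsp* were 104 and 62.9 RPKM in Control line 4 females, and 34.6 to 100 and 40.8 to 69.4 RPKM in the 14 others. *Ppl*, the plakin that links filaments to the envelope, was 51.0 and 31.7 to 50.5. Of the 23 genes of this list, also without a filter on counts, 3 were more than 4-fold above in Control line 4 females and 1 in HR line 3 males. The shares of all genes were 1.30% and 1.42%.

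Among the 7 basal cell regulators, only *Grhl3*, a driver of barrier formation, was more than 4-fold above in Control line 4 females, at 3.01 RPKM against 0.128 to 1.93. Of all genes, 1.30% were above in that library. *Klf5*, *Klf4* and *Sfn* were 18.1, 16.6 and 16.3 RPKM there, against 11.5 to 22.8, 9.16 to 19.7 and 3.19 to 6.05 RPKM in the 14 others. Markers of other cell types differed in their own ways. The 4 vomeronasal neuron markers summed to 2029 RPKM in Control line 4 females and 1729 in HR line 3 males, against 1445 to 2658, with *Omp* at 1090 and 866, *Gnai2* at 495 and 479 and *Trpc2* at 289 and 259. The 7 nasal gland markers, secreted lipocalins and mucosal proteins led by *Obp2a* and *Lcn3*, summed to 29370 RPKM in Control line 4 females and 173333 in HR line 3 males, against 1729 to 202933. Of these 7, 4 were more than 4-fold above in HR line 3 males, compared with 1.42% of genes. The 6 cartilage and bone markers summed to 142 and 144 RPKM against 30.8 to 124, with *Ibsp*, a bone matrix protein, at 90.4 and 86.3 and *Bglap*, osteocalcin, at 34.7 and 44.2. Of these 6, 1 was more than 4-fold above in Control line 4 females, compared with 1.30% of genes. Blood cell markers summed to 129 and 303 against 54.6 to 156, nearly all *Hba-a1*, and sebaceous gland markers to 9.13 and 11.5 against 7.98 to 31.8, mostly *Plin2*. Skeletal muscle markers summed to 8.52 and 6.81 against 5.21 to 9.29, mostly *Mylpf*. The part of tissue next to the VNO in the keratin levels was not tested.

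Partner keratins were set against each other over the 8 lines, with the male and female library of a line averaged on log2(RPKM + 1). Over 4 pairs compared, *Krt5* and *Krt14* had Pearson's r = 0.93 (exact permutation *p* = 0.00414, adjusted over the pairs *p* = 0.00828, exact) and Spearman's rho = 0.76 (exact *p* = 0.0368). *Krt4* and *Krt13* had r = 0.98 (exact permutation *p* = 0.00275, adjusted *p* = 0.00828) and rho = 0.83 (exact *p* = 0.0154). *Krt1* and *Krt10* had r = 0.92 (exact permutation *p* = 0.0119, adjusted *p* = 0.0158) and rho = 0.64 (exact *p* = 0.0962). Without the 2 lines farthest from the median, which included Control line 4 each time, r was 0.71 for *Krt5* and *Krt14*, 0.82 for *Krt4* and *Krt13* and 0.19 for *Krt1* and *Krt10*. Without Control line 4 alone, no pair passed the threshold: the adjusted exact permutation *p* was 0.130 for *Krt5* and *Krt14* (r = 0.74), 0.334 for *Krt1* and *Krt10* (r = 0.49) and 0.0881 for *Krt4* and *Krt13* (r = 0.90). In male libraries alone, which leave out the Control line 4 female library, r was 0.78 for *Krt5* and *Krt14* (adjusted exact permutation *p* = 0.0243), 0.88 for *Krt1* and *Krt10* (adjusted exact *p* = 0.0249) and 0.94 for *Krt4* and *Krt13* (adjusted exact *p* = 0.00114). Without the 2 farthest male libraries, which included HR line 3 for *Krt1* and *Krt10*, their r was 0.51. The relation of *Krt1* with *Krt10* thus rests on those lines. That of *Krt4* with *Krt13* also moved with the lines left out. Without Control line 4 and lines 3 and 8, r was 0.03, and on log2 CPM without lines 4 and 8 it was 0.39. In male libraries without lines 3 and 8 it was 0.89.

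*Krt8* and *Krt18* had r = 0.09 over the line means (exact permutation *p* = 0.822) and rho = -0.02 (exact *p* = 0.977). The sexes differed here, with r = 0.94 in male libraries (exact permutation *p* = 5.70e-04, adjusted *p* = 0.00114, and r = 0.88 without lines 3 and 7) and r = -0.37 in female libraries (exact *p* = 0.358). The difference between these correlations was not tested. In females the pair with the highest *Krt8* (247 and 239 RPKM, in Control line 5 and HR line 3) had low *Krt18* (286 and 272), and without lines 3 and 5 the female r was 0.65. The ratio of *Krt8* to *Krt18* was 0.863 and 0.878 in these libraries and 0.534 to 0.658 in the 14 others.

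The comparison that the breeding design was made for is HR against Control, and no keratin passed it. With sex in the model, edgeR's quasi-likelihood test (Benjamini-Hochberg adjusted) called 0 of the 23 keratins that passed the filter on low counts, against 0.0242% of the 16507 genes tested. At an unadjusted *p* under 0.05 it gave 1 keratin, *Krt5*, against 3.30% of genes, and DESeq2 called 0 and gave 2, against 3.82% of genes. DESeq2 returned no *p* for *Krt4*, *Krt6a*, *Krt10*, *Krt13*, *Krt14* and *Krt75*. With counts summed per line 0 keratins had an unadjusted *p* under 0.05, against 1.21% of genes, and in a limma-voom fit that takes line as random 1 did, *Krt25* and not *Krt5*, against 1.59%. Of the 23, 20 had a lower and 3 a higher estimate in HR lines, with a median log2 fold change of -0.67 where the median of all genes was 0.00. Without the Control line 4 female library 13 were lower and 10 higher, with a median of -0.03. Without both this and the HR line 3 male library, 22 keratins were tested, 0 were called and 2 (*Krt5* and *Krt19*) had an unadjusted *p* under 0.05, against 4.80% of genes, and the median was -0.03.

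**Figure D5:**
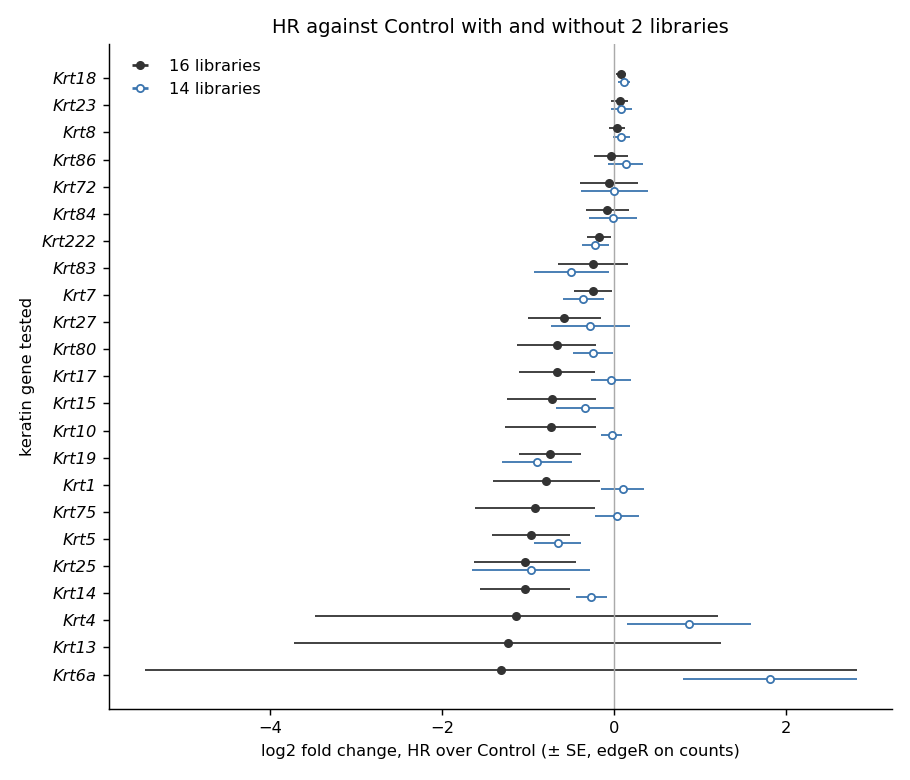
Log2 fold change of HR over Control for the 23 keratins tested in 16 libraries (filled points) and the 22 tested in the 14 libraries left without Control line 4 females and HR line 3 males (open points). Bars are an approximate standard error, taken from the F of the test. Estimates for *Krt18*, *Krt8* and *Krt23* are near 0 with short bars in both, and those of *Krt17* and *Krt10* move from -0.67 and -0.74 to -0.04 and -0.03.

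By class, the simple keratins had estimates from -0.75 to 0.08 (6 of 7 tested), with *Krt18* at 0.08 ± 0.06 (approximate SE, from the F of the test) and *Krt8* at 0.03 ± 0.09. Line means of RPKM were 330 ± 34.5 for *Krt18* in HR and 311 ± 17.5 in Control lines (SD, n = 4), and 193 ± 5.79 against 191 ± 11.4 for *Krt8*. An exact two-sided permutation test over the 8 line means of log2(RPKM + 1), which cannot go below 0.0286, gave *p* = 0.400 for *Krt18* and 0.543 for *Krt8*. *Krt19* had the lowest estimate of the class at -0.75 ± 0.36 (edgeR's quasi-likelihood test, adjusted *p* = 0.9997), and -0.90 ± 0.41 (edgeR, adjusted *p* = 0.919) in the 14 libraries.

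The 3 basal keratins were all tested, and each estimate was lower in HR lines. *Krt5* had a log2 fold change of -0.97 ± 0.45 (edgeR's quasi-likelihood test, adjusted *p* = 0.9997), and -0.66 ± 0.27 (edgeR, adjusted *p* = 0.919) in the 14 libraries. Its line means were 9.89 ± 3.04 RPKM in HR and 21.2 ± 17.3 in Control lines (SD, n = 4). On log2(RPKM + 1) they differed by -0.67 (exact permutation *p* = 0.257), and by -0.52 in the 14 libraries (exact permutation *p* = 0.143). *Krt14* went from -1.04 ± 0.52 to -0.27 ± 0.18 and *Krt15* from -0.73 ± 0.52 to -0.34 ± 0.34 when the 2 libraries were left out. *Krt10* went from -0.74 ± 0.53 to -0.03 ± 0.12 and *Krt1* from -0.79 ± 0.62 to 0.10 ± 0.25. *Krt17* went from -0.67 ± 0.44 to -0.04 ± 0.23. *Krt72*, *Krt86* and *Krt222* had estimates of -0.06 ± 0.34, -0.04 ± 0.20 and -0.18 ± 0.14. *Krt76* did not pass the filter, and its line means were 1.80 RPKM in HR and 12.3 in Control lines (exact permutation *p* = 0.914).

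Within one sex, edgeR's quasi-likelihood test called 0 keratins in males and 0 in females. In females 6 of 20 keratins had an unadjusted *p* under 0.05, against 1.94% of genes, all lower in HR lines (*Krt4*, *Krt5*, *Krt6a*, *Krt14*, *Krt15* and *Krt80*). Without the Control line 4 library, 2 of 20 did, *Krt5* (-0.86 ± 0.18) and *Krt15* (-0.61 ± 0.24), against 1.81% of genes, and the adjusted *p* was 0.9997 for both. In males 2 of 21 keratins had an unadjusted *p* under 0.05, against 1.12% of genes, and both were higher in HR lines: *Krt4* by 2.95 ± 0.89 and *Krt13* by 3.00 ± 0.96 on the log2 scale. Without the HR line 3 male library they were *Krt4* by 2.18 ± 0.81 and *Krt13* by 2.10 ± 0.86, 2 of 22, against 1.67% of genes. DESeq2 was not run within one sex.

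Between the sexes, edgeR's quasi-likelihood test called 0 of 23 keratins, against 0.188% of 16507 genes. It gave 0 keratins at an unadjusted *p* under 0.05, against 8.08% of genes. DESeq2 called 0 and gave 0 as well, against 1510 of 16507 genes, with no *p* for *Krt4*, *Krt6a*, *Krt10*, *Krt13*, *Krt14* and *Krt75*. Estimates were higher in females for 18 keratins and lower for 5, with a median of 0.44, and without the Control line 4 female library they were higher for 7 and lower for 16, with a median of -0.10. With line as a replicate block, 0 of 30 were called and 1, *Krt19* (0.74 ± 0.32, higher in females, adjusted *p* = 0.285), had an unadjusted *p* under 0.05, against 16.4% of genes. Counts were used for this test, and counts and RPKM both come in a separate table for each sex. The labels do not say whether males and females were sequenced together. A difference between sequencing runs or tables therefore cannot be told apart from sex.

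The interaction of sex and linetype, which asks whether HR and Control lines differ by another amount in females than in males, was called for 0 of 26 keratins by edgeR's quasi-likelihood test, against 0% of 16757 genes. At an unadjusted *p* under 0.05 it gave 10 of the 26, against 0.460% of genes. DESeq2 called 0 and gave 5, against 69 of 16757 genes. It returned no *p* for *Krt4*, *Krt6a*, *Krt6b*, *Krt10*, *Krt14*, *Krt75* and *Krt76*, so it could not give these. The 10 of edgeR were *Krt76*, *Krt6a*, *Krt4*, *Krt6b*, *Krt13*, *Krt80*, *Krt75*, *Krt10*, *Krt5* and *Krt15*, all with a negative estimate, and the highest level of each was in Control line 4 females. *Krt5* had an estimate of -1.68 ± 0.78 and *Krt10* of -2.0 ± 0.90. Without the 2 libraries, 0 of 25 were called and 2 (*Krt4* and *Krt80*) had an unadjusted *p* under 0.05, against 0.458% of genes, with *Krt5* at -0.40 ± 0.55 and *Krt10* at 0.03 ± 0.25.

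Among the partner genes, no desmosome, envelope or basal cell regulator gene was called for linetype by edgeR's quasi-likelihood test. Of the desmosome and hemidesmosome list 20 of 23 genes were tested, 5 with a higher and 15 with a lower estimate in HR lines, with a median of -0.18, and 4 had an unadjusted *p* under 0.05, where 3.30% of all genes did. *Dsp*, the plakin of the desmosome, was one of them at -0.24 ± 0.10, and *Perp* and *Ppl* had -0.23 ± 0.20 and 0.03 ± 0.09. Of the cornified envelope list 11 of 29 genes were tested, 2 higher and 9 lower, with a median of -0.28 and 0 at an unadjusted *p* under 0.05, *Sprr1a* at 0.35 ± 0.45. All 7 basal cell regulators were tested, 2 higher and 5 lower, with a median of -0.08 and 1 at an unadjusted *p* under 0.05. DESeq2 called 0 genes of the 3 lists, and gave 6, 0 and 1 at an unadjusted *p* under 0.05, where 3.82% of all genes did. In the 14 libraries edgeR called 0 of each list. The desmosome list then had a median of -0.17 with 3 at an unadjusted *p* under 0.05, the envelope list 0.06 with 2 and the regulators -0.09 with 2, where 4.80% of all genes did.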

How the data were processed

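RNA was measured in 16 VNO libraries, each a pool of 3 mice of one line and sex. The authors depleted ribosomal RNA, made directional libraries, sequenced single-end reads of 75 nt and aligned them to GRCm38 with STAR 2.6.1d, accepting no mismatch and no read with several locations. The deposited count tables, a separate one for each sex, hold reads per gene without normalization. The counting tool, annotation and strand setting are not given in the sources used here. The deposited RPKM come from Cuffdiff, in a table for each sex, so levels set across the sexes come from separately made tables. Of the male count table, 16.7% to 18.5% of the reads listed with it lay outside genes, and 4 summary entries were left out.

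The 52 keratins, their classes and the other lists were chosen with earlier results of these data known. Counts were tested with edgeR 4.0.16 (quasi-likelihood, TMM, filterByExpr at a minimum count of 10, R 4.3.3) over all genes, with sex and linetype in the model, and Benjamini-Hochberg adjustment with a threshold of 0.05. The SE beside an edgeR estimate is the absolute log2 fold change divided by the square root of the test's F, an approximation. Alternatives used DESeq2 1.42.0 and limma 3.58.1. Levels, classes and exact permutation tests were computed with pandas 2.3.3 and scipy 1.17.1 on RPKM as deposited or log2(RPKM + 1). Log2 CPM used a prior count of 2. The procedure was tested on simulated data. These were drawn without an effect of line and without a library set apart, so they cannot show how the test behaves with either. Named genes were *Krt8*, *Krt18*, *Krt5*, *Krt14*, *Krt1* and *Krt10*, the keratin with the highest mean RPKM in each class, any keratin past the threshold and the 3 genes with the highest mean RPKM in each other list. Other keratins are named to account for them, and *Sprr3* and *Grhl3* were named after their values were seen.

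Line numbers in the labels pair the male and female libraries, and the replicate block is an alternative for sex and for the interaction. Taken as deviations from their group means, the paired libraries correlated at 0.321 to 0.708 over genes in each of the 8 lines. Libraries of different lines were not compared in this way. Positions come from GENCODE M21, and sequences before start sites from RefSeq (GRCm38.p6), which held 35 of the 52 genes. Nothing in the labels says that pools were repeated, so the SD is over lines. Figures were drawn with matplotlib 3.10.9.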

Additional observations from a re-analysis of the deposited data

Results flagged for a closer look

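In groups of 4 libraries, the gap between an extreme value and its neighbor was compared with the whole range of the group (Dixon's criterion at its 95% critical value for 4 values). Of 69 groups of values examined over the named keratins and the class sums, 20 were past it. The 1 in 20 groups that chance gives is no measure for this count, because some keratins were named by their mean in these same libraries. *Krt76* was named so, with a median of 0.0431 RPKM and 98.3 in Control line 4 females. Of the 20 groups past the criterion, 11 were the Control line 4 female library, 6 the HR line 3 male library and 3 others, and the class sums hold the same genes as the single values.

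The Control line 4 female library stood apart from the other Control females for *Krt5* (74.4 RPKM), *Krt14* (75.4), *Krt1* (15.2), *Krt10* (98), *Krt76* (98.3) and *Krt17* (297), and for the sums of the basal (193), cornifying (115), mucosal (171), activated and duct (424) and other keratins (4.04). The other 3 Control female libraries had 15 to 16.5 RPKM of *Krt5* and at most 0.0639 of *Krt76*. The HR line 3 male library stood apart from the other HR males for *Krt5* (18.0 RPKM against 8.17 to 9.51), *Krt10* (14.9 against 2.07 to 3.03) and *Krt76* (13.1 against 0 to 0.622), and for the sums of the basal (37.3), cornifying (17.6) and mucosal keratins (21.3). For *Krt10*, which leads the cornifying sum, the excess depends on the table. On log2 CPM this library was 0.99 above the median of the 14 others.

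The mucosal sum of Control line 4 males, 1.01 RPKM, stood above that of the other Control males, at 0.263 to 0.321. That of HR line 8 females, 1.46 RPKM, stood above that of the other HR females, at 0.170 to 0.265. *Krt18* in HR line 3 females was low, at 272 RPKM against 346 to 360 in the other HR females.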

How the results depend on the processing

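No keratin was called for linetype, sex or their interaction under any of the 49 alternatives run (other size factors, no filter, DESeq2, limma-voom, line sums, one sex, replicate block, lines or libraries left out), so the replicate block changed no call. In each of these comparisons DESeq2 returned no *p* for *Krt4*, *Krt6a*, *Krt10*, *Krt14* and *Krt75*, so it could not call them. With line as a replicate block, 0 of 30 keratins were called for sex and 0 of 30 for the interaction. Some alternatives that leave out libraries, and the stricter filter on counts in the 14 other libraries, were chosen after seeing the data. The envelope list's median for linetype went from -0.28 to 0.06 without both libraries.

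Of 504 log2 fold changes of named keratins under an alternative, 456 kept their direction and their side of the threshold and 48 changed sign. For HR against Control, *Krt1* (-0.79) became 0.25 without the Control line 4 female library, 0.10 without both libraries (this and HR line 3 male), 0.31 in males, 0.04 in males without HR line 3 and 0.16 in females without Control line 4. *Krt10* (-0.74) became 0.13 without the Control line 4 female library and 0.26 in males. *Krt17* became 0.05 in males and 0.02 in males without HR line 3. *Krt72* became 0.11 in females and 0.20 in females without Control line 4. *Krt86* became 0.02 without the Control line 4 female library, 0.13 without both, 0.22 in females and 0.40 in females without Control line 4. Leaving out one line gave -1.08 to 0.24 for *Krt1*, -0.97 to 0.11 for *Krt10*, -0.31 to 0.12 for *Krt72* and -0.21 to 0.11 for *Krt86*. For *Krt5* the range was -1.28 to -0.35, the weakest without Control line 4.

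For sex, *Krt5* became -0.06 and *Krt14* -0.10 without the Control line 4 female library, and *Krt14* -0.01 without both. *Krt1* became -0.32 and *Krt10* -0.29 without it, and -0.18 and -0.13 without both. With the replicate block they became -0.35 and -0.28 without it and -0.13 and -0.09 without both, with *Krt8* at -0.03 and *Krt17* at -0.04. Leaving out one line gave -0.01 to 0.96 for *Krt14*, -0.33 to 1.08 for *Krt1* and -0.31 to 0.92 for *Krt10*. For the interaction without both libraries, *Krt8* became -0.02, *Krt1* 0.11 and *Krt10* 0.03, and leaving out one line gave -0.12 to 0.19 for *Krt8* and -0.19 to 0.05 for *Krt222*. The unadjusted count for the interaction was 10 keratins, 4 without the Control line 4 female library and 5 by DESeq2. Of these 10, DESeq2 returned no *p* for *Krt4*, *Krt6a*, *Krt6b*, *Krt10*, *Krt75* and *Krt76*.

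On line means of log2(RPKM + 1), *Krt1*, *Krt10*, *Krt76* and *Krt17* became 0.03, 0.07, 0.14 and 0.02 without both libraries, and *Krt76* 0.30 with a pseudocount of 0.1. For the pairs, r of *Krt8* and *Krt18* was -0.37 in females and 0.94 in males, that of *Krt1* and *Krt10* 0.85 on log2 CPM (adjusted exact permutation *p* = 0.0604) and 0.49 without Control line 4, which also gave 0.74 for *Krt5* and *Krt14* and 0.90 for *Krt4* and *Krt13*. The highest over the median library, by class, was 8.80 for basal keratins and 1.98 without the Control line 4 female library or both. It was 29.8 for cornifying keratins, 10 by CPM, 4.59 without the first and 1.26 without both. For mucosal keratins it was 218, then 28.2 and 7.49, and for activated and duct keratins 10.3, then 1.56 and 1.65. Leaving out one line gave 1.08 to 1.18 for simple, 1.81 to 9.34 for basal, 4.53 to 31.5 for cornifying, 37.0 to 297 for mucosal and 1.65 to 11.1 for activated and duct keratins. The cause of these changes beyond the library left out was not tested. For linetype the SD rests on 4 lines each, and keratins with few counts did not enter the tests.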

Other observations

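The Control line 5 female and HR line 3 female libraries stood apart from the other 14 in several keratins besides *Krt8*, a pattern chosen after its values were seen. *Krt8* was highest in these libraries, at 247 and 239 RPKM, where the other 14 had 153 to 209. The ratio of *Krt8* to *Krt18* was 0.863 and 0.878 by RPKM against 0.534 to 0.658, and 1.10 and 1.14 by counts against 0.714 to 0.908. *Krt72*, a keratin of the inner root sheath, was listed at 0 and at 0.0291 RPKM against 0.653 to 1.41. It had 6 and 13 counts against 47 to 202, or 0.382 and 0.477 CPM against 1.62 to 3.29. *Krt1* was 0.182 and 0.512 RPKM against at least 0.791, and *Krt10* 1.16 and 1.45 against at least 2.05. *Krt17* was 62.5 and 62.1 RPKM, above the 13 other libraries without Control line 4 females, which reached 54.5. *Krt1*, *Krt10* and *Krt72* are among the keratins whose counts and RPKM did not keep one ratio. Control line 5 females had the fewest counts on genes, 15998552. The pattern was not limited to keratins: 260 and 139 of 17728 genes were more than 4-fold above the median of the 15 other libraries. These libraries come from different linetypes, and no test was made of the pattern.

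*Krt76*, *Krt6a* and *Krt4* had low but measurable levels in both libraries of HR line 8. *Krt76* was 0.622 RPKM in males and 0.203 in females, *Krt6a* was 2.14 and 0.583, and *Krt4* was 1.79 and 0.799. *Krt76* in the 4 Control male libraries did not pass 0.0771 RPKM. Such levels of *Krt76* and *Krt4* were not limited to HR line 8. *Krt76* was higher in HR line 6 males than in HR line 8 females. *Krt4* was higher in HR line 7 males and in Control line 5 females than in HR line 8 females. For *Krt6a*, both libraries of HR line 8 were above all others except Control line 4 females and HR line 3 males.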
